A study of Mus musculus with 19 samples.

Results

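The collagen chain genes are the genes that each encode 1 alpha chain of a collagen, and they were chosen by symbol alone: Col, a number, a and a number. The rule found 44 members among the 37668 genes listed. Their levels were described in mouse aorta of 2 genotypes at 3 ages. All mice were male C57BL/6, either wild type or fibrillin-1 hypomorphic, which the series design names Fbn1mgR/mgR, a model of Marfan syndrome. They were 16, 30 or 60 days old, and no treatment is named for these groups. The allele is carried in the germline, so every tissue of the hypomorph has it and not the aorta alone. By the labels, 19 libraries were sequenced. Each genotype had 3 at 16 days and 4 at 30 days, while at 60 days wild type had 2 and the hypomorph 3. The deposited values are in FPKM (fragments scaled to the length of the transcript and to the mapped fragments of the library), and there is 1 value per gene, genotype and age, pooled over libraries. No SD can be given, the depth is unknown, and nothing in the older 2 tables checks a difference against the spread of replicates.

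Collagens are extracellular proteins in which alpha chains wind around each other into a triple helix. The helix closes only where glycine, the smallest residue, stands first in each triplet of residues, because no larger side chain has room in its centre. In the aortic wall, fibrillar collagens of the media and adventitia bear the load at high stretch beside the elastic fibres, type IV collagen forms the sheet of the basement membranes around smooth muscle and under the endothelium, and type VI collagen makes fine beaded filaments between cells and fibrils. Fibrillin-1, the protein that is short in the hypomorph, builds the microfibrils that scaffold the elastic fibres.

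The glycine rule is visible in the coding sequence of every member, including those whose levels differed most between the genotypes. The 54 bases that open the longest unbroken triplet run of 5 chains are printed 5′ to 3′, from the coding strand of GENCODE M21 (build GRCm38), with the first codon of each triplet, always a glycine codon, in capitals. Col1a1 stands for the fibril-forming chains, Col4a1 for the basement membrane, Col6a6 for the beaded filaments, Col8a1 for the short-chain network and Col12a1 for the fibril-associated chains.
Col1a1, codons 168 to 185: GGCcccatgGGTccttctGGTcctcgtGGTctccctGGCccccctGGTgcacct
Col4a1, codons 43 to 60: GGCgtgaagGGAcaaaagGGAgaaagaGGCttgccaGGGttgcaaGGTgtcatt
Col6a6, codons 1391 to 1408: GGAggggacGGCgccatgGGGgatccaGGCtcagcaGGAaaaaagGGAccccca
Col8a1, codons 352 to 369: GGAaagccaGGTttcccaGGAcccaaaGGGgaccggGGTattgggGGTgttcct
Col12a1, codons 2805 to 2822: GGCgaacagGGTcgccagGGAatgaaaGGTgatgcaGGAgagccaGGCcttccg
All 44 members held a run of at least 10 glycine-first triplets, against 54 of 21570 other coding genes (0.25%). The longest run ranged from 23 triplets in Col26a1 to 344 in Col3a1, with a median of 58.5. The run was 338 triplets in Col1a1, 40 in Col4a1, 42 in Col6a6, 61 in Col8a1 and 32 in Col12a1, so the network and fibril-associated chains printed here have interrupted or short helices.

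The members were also long transcripts, from 2624 bases in Col25a1 to 11511 in Col12a1, with a median of 5626.5 bases against 2566 over all genes. Genotype differences moved with transcript length over the compared coding genes (Spearman's rho 0.19 over 12225 genes at 16 days, 0.31 over 12254 at 30 days and 0.16 over 12300 at 60 days). Over the members the same rho was 0.23, -0.10 and 0.19. These correlations are across genes of the same pooled libraries and are given as descriptions; the part of length in the results was not tested.

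Fbn1, the gene that carries the allele, gave lower values in the hypomorph each time: wild type read 146, 133.9 and 52.7 FPKM at the 3 ages and the hypomorph 41.4, 40.9 and 24.6, which is 3.52-, 3.27- and 2.14-fold lower. Smooth muscle markers fixed as a list were present in every group, with a summed level of 9227 FPKM in wild type and 10770 FPKM in the hypomorph at 16 days and 9720 and 9560 FPKM at 60 days. At 30 days the sums were 5978 and 5043 FPKM without Acta2, which was listed at 0 in both genotypes. Of the macrophage markers, 8 of 8 were at least 1.5-fold higher in the hypomorph at each age, beside 5.58%, 11.1% and 15.6% of all genes. Their sums in hypomorph and wild type were 198 and 99.2 FPKM at 16 days, 459 and 142 at 30 days, and 809 and 138 at 60 days. Fibroblast markers in the same order summed to 1909 and 2266 FPKM at 16 days, 2271 and 4531 at 30 days, and 2501 and 7994 at 60 days. Endothelial markers summed to 371 and 436, 345 and 516, and 287 and 672 FPKM. Single markers lay on the other side of these sums. Of 8 fibroblast markers 2, 2 and 0 were higher in the hypomorph at the 3 ages, and of 8 endothelial markers 3, 2 and 2. Chosen after their values were seen, Dpep1 was 2.25-fold higher at 16 days and Kdr 1.57-fold higher at 60 days. Dpep1 was listed in a span that holds 159 genes. Emcn, chosen in the same way, was 1.18- and 1.34-fold higher at 16 and 30 days. None of the macrophage, fibroblast and endothelial lists had a marker at 0. At 30 days, 8 of 8 cardiomyocyte markers were at least 1.5-fold higher in the hypomorph, beside 11.1% of all genes, with sums of 904 and 389 FPKM. At that age 7 of 7 compared adipocyte markers were at least 1.5-fold lower, beside 6.93% of all genes, with sums of 509 and 1172 FPKM. At 16 days the cardiomyocyte sums were 2043 and 1844 FPKM and the adipocyte sums 574 and 608, and at 60 days they were 576 and 391 and 1271 and 909.97 FPKM. Within the 16-day cardiomyocyte sums Nppa was at 214 and 14.3 FPKM, and 3 of the 8 markers were lower in the hypomorph. In bulk tissue, fewer cells of a type and less RNA per cell cannot be told apart, and the part of these markers in the collagen results was not tested.

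Of the 44 members, 29 could be compared at 16 days, 29 at 30 days and 31 at 60 days. A gene was compared where both genotypes were listed above 0 and their mean was at least 1 FPKM. At 16 and 30 days Col1a1, Col1a2 and Col3a1, the chains of types I and III collagen, were listed at 0 in both genotypes with the status HIDATA, which Cufflinks gives to loci with too many fragments to estimate. Such a 0 is a failed estimate and no level. A further 12, 12 and 13 members were listed but stayed under the minimum, with single values from 0.0206 to 1.13 FPKM. Col6a4, Col6a5, Col7a1, Col9a2, Col10a1, Col13a1, Col17a1, Col19a1, Col24a1, Col25a1 and Col26a1 were under it at all 3 ages. Of the compared members, 1 at 16 days, 2 at 30 days and 4 at 60 days had one genotype below 1 FPKM and entered through the other genotype.

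**Figure D1:**
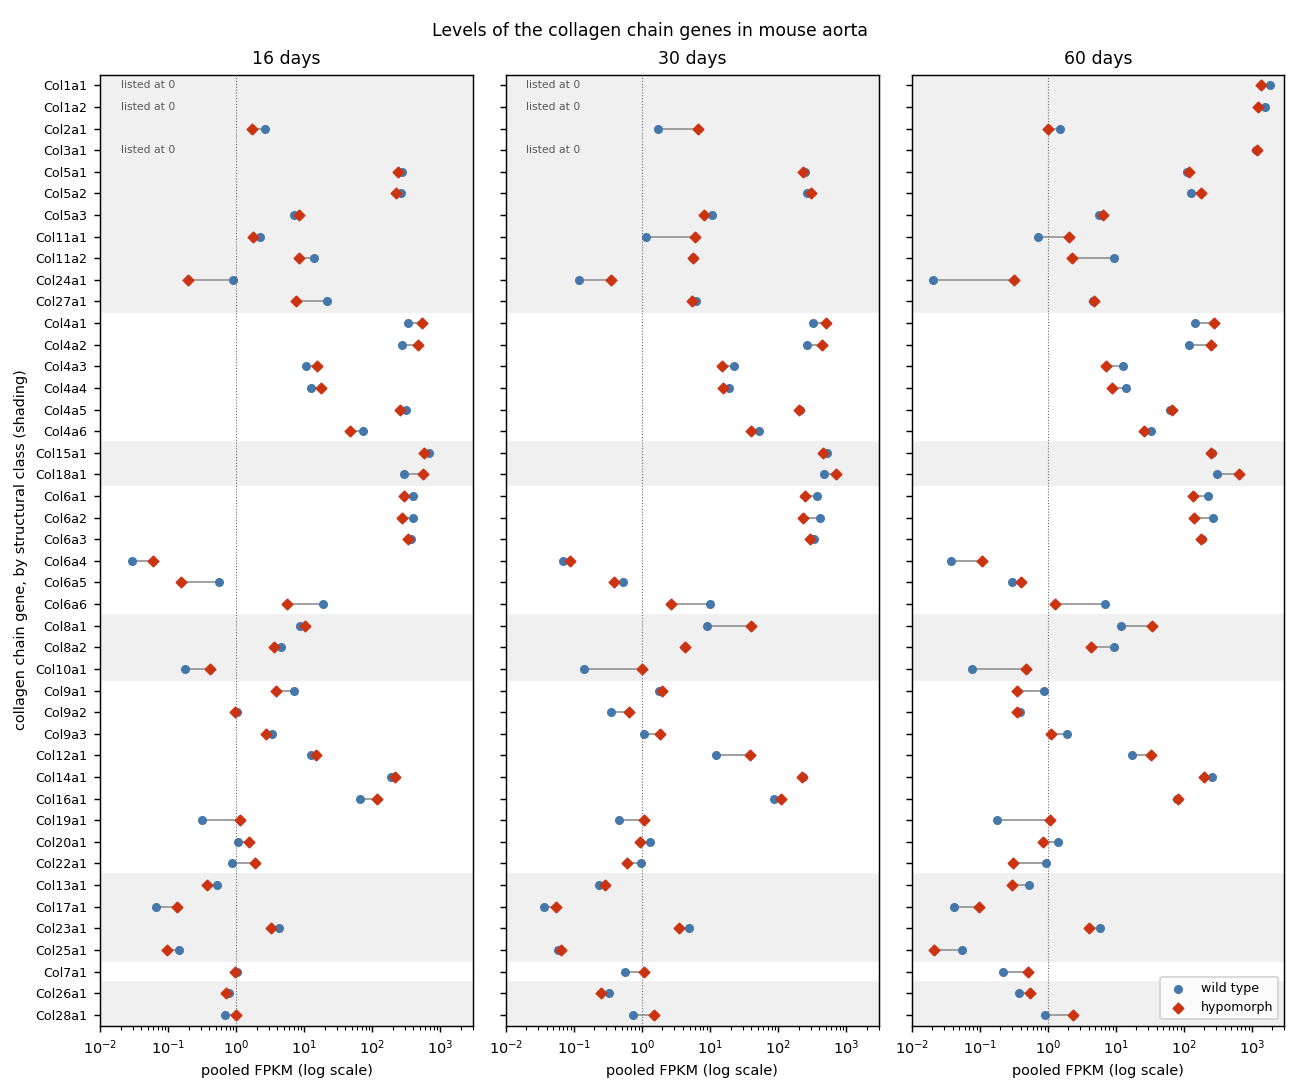
Pooled FPKM (log scale) of the 44 collagen chain genes in wild type (blue circles) and hypomorph (red diamonds) at 16, 30 and 60 days; a line joins the genotypes, shading groups the structural classes and the dotted line marks 1 FPKM. Col1a1, Col1a2 and Col3a1 have no level at 16 and 30 days, and members at or above 100 FPKM number 12 in the hypomorph and 11 in wild type at 16 and 30 days and 13 in each genotype at 60 days.

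The collagen genes as a group did not stand on one side. The genotype difference was taken on a log2 scale after 1 was added to each FPKM, hypomorph minus wild type, a scale on which low genes appear to differ by less. Its median over the compared members was -0.22 at 16 days, -0.04 at 30 days and -0.05 at 60 days, beside 0.00, 0.04 and 0.11 over all genes. The sign of the members' median turned at 30 days, to 0.02, with no filter on level, and at 60 days, to 0.12, when listings with a status other than OK were left out. The hypomorph was above wild type for 12 members and below it for 17 at 16 days, 13 and 16 at 30 days, and 14 and 17 at 60 days.

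Members at least 1.5-fold apart, by the plain ratio of FPKM, were counted beside the same share of all genes. At 16 days 5 members were higher and 6 lower in the hypomorph, which is 17.2% and 20.7% of 29, beside 5.58% and 5.34% of all genes compared. At 30 days 9 were higher and 2 lower (31.0% and 6.90%), beside 11.1% and 6.93% of all genes; the share of lower members was that of the background. At 60 days 7 were higher and 9 lower of 31 (22.6% and 29.0%), beside 15.6% and 7.59%. Some of these members entered through their higher genotype: wild type was under 1 FPKM for Col22a1 at 16 days, Col28a1 at 30 days and Col11a1 and Col28a1 at 60 days, all counted as higher, and the hypomorph was under it for Col20a1 at 60 days, counted as lower. When the hypomorph values were divided by the median ratio of all genes, 7 members were higher and 4 lower at 30 days, beside 10.1% and 8.05% of all genes, and 7 higher and 11 lower at 60 days, beside 11.7% and 10.1%. With genes in shared spans left out, 1 of 15, 4 of 16 and 3 of 17 members were counted as higher at the 3 ages, beside 5.87%, 11.8% and 16.5% of all genes. The shares of higher members at 16 and 60 days were thus near the background. By the same rule 4 of 15, 2 of 16 and 6 of 17 members were lower, beside 5.35%, 7.23% and 7.94% of all genes. The members nearest to the threshold were Col4a6 at 16 days (1.51-fold lower, inside) and Col20a1 (1.45-fold higher, outside), Col4a1 and Col18a1 at 30 days (both 1.53-fold higher, inside) and Col6a1 (1.49-fold lower, outside), and Col4a4 at 60 days (1.61-fold lower, inside) and Col2a1 (1.49-fold lower, outside).

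Across ages, 27 members were compared in all 3 tables, and 3 of them, Col4a1, Col4a2 and Col18a1, were at least 1.5-fold higher in the hypomorph each time (11.1%, beside 2.79% of 13373 genes). After scaling by the median ratio, Col4a1 and Col18a1 lay just under the threshold at 30 days, with log2 differences of 0.57 each. A single member, Col6a6, was at least 1.5-fold lower at every age (3.70%, beside 1.46%). All 3 of the higher genes were listed in a span shared with another gene, and Col6a6 was alone in its span. Among all 44 members, 21 shared a listed span and 23 were alone in theirs. Without regard to size, 6 members were higher at all ages (Col4a1, Col4a2, Col8a1, Col12a1, Col16a1 and Col18a1) and 8 lower (Col4a6, Col6a1, Col6a2, Col6a3, Col6a6, Col8a2, Col15a1 and Col23a1). The other 13 lay on different sides at different ages. Small differences turned sign after scaling: at 60 days that of Col16a1 became -0.10, Col27a1 -0.08, Col3a1 -0.03, Col4a5 -0.01 and Col5a1 -0.0043, and at 30 days that of Col11a2 became -0.01, so none of these has a settled direction at that age. The ages have separate libraries, and the members share theirs within an age.

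**Figure D2:**
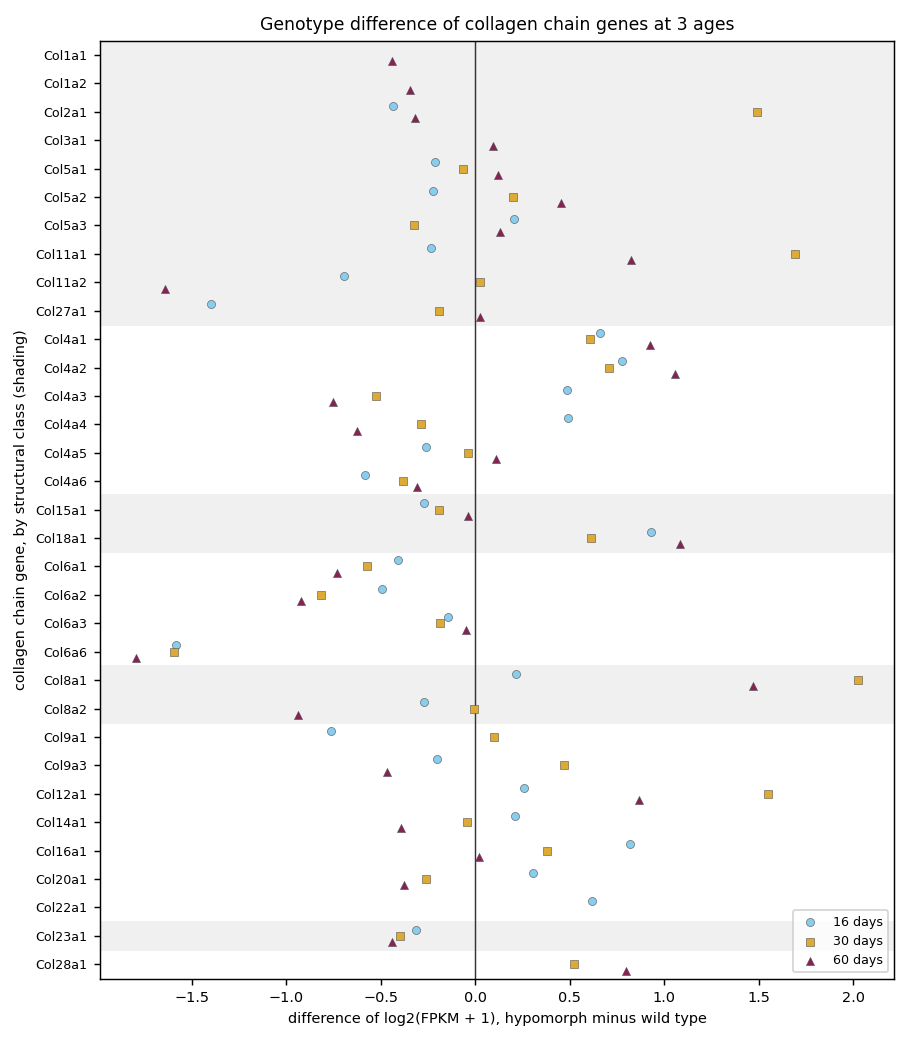
Difference of log2(FPKM + 1), hypomorph minus wild type, for each compared collagen chain gene at 16 (circles), 30 (squares) and 60 days (triangles), 1 value per age from pooled libraries. Col4a1, Col4a2 and Col18a1 lie right of 0 at every age, between 0.61 and 1.08, and Col6a6 lies left of it, between -1.80 and -1.59.

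At 16 days the authors' table also holds a test of each gene, made on 25 of the 44 members. The test failed for 13 members, among them Col4a1, Col4a2, Col6a3, Col11a1, Col14a1 and Col16a1, and 3 very low members were not tested. In the authors' deposited table, 3 members passed a q-value of 0.05, 1 of them higher and 2 lower in the hypomorph, beside 2.80% of the 12738 genes tested (1.33% higher and 1.47% lower). Col27a1, a fibril-forming chain of cartilage and other tissues, fell from 21.9 FPKM in wild type to 7.68 in the hypomorph. Its log2 ratio in the authors' deposited table was -1.51, with an implied SE of 0.18 and a q-value listed as 0. Col6a6, a chain that can take the place of the alpha 3 chain in type VI collagen, fell from 19.0 to 5.65 FPKM, and in the authors' deposited table its log2 ratio was -1.75, its implied SE 0.42 and its q-value 0.00202. Col19a1, a fibril-associated chain of basement membrane zones, rose from 0.310 to 1.13 FPKM (authors' deposited log2 ratio 1.87, implied SE 0.41, q-value 0.000522). Its mean stayed under 1 FPKM, so it enters no count of members 1.5-fold apart between the genotypes. Col27a1 and Col19a1 were each listed in a span that holds 2 genes. Col6a5, another alternative chain of type VI collagen, just missed the threshold with 0.562 FPKM in wild type and 0.155 in the hypomorph; the authors' deposited table gives it a ratio of -1.86 on the log2 scale, an implied SE of 0.58 and a q-value of 0.0506. For the other 21 tested members the q-value was at least 0.259, and a q-value that misses the threshold does not show equal levels.

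**Figure D3:**
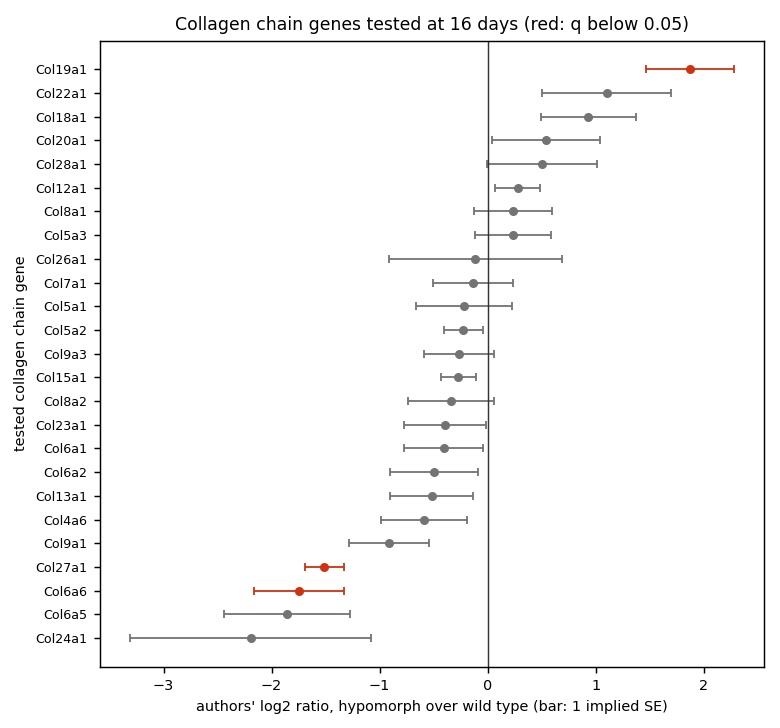
The authors' log2 ratio at 16 days, hypomorph over wild type, of the 25 tested collagen chain genes; bars are 1 standard error as implied by the deposited ratio and statistic. Red marks Col19a1, Col27a1 and Col6a6, whose q-value was below 0.05; Col18a1 lies at 0.93 with a bar of 0.44.

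The chains of the basement membrane and the collagens attached to it differed in direction from gene to gene. Col4a1 and Col4a2 encode the 2 chains of the common type IV heterotrimer. Col4a1 stood at 335 FPKM in wild type and 531 in the hypomorph at 16 days, 329.5 and 503 at 30 days, and 145 and 277 at 60 days, which is 1.58-, 1.53- and 1.91-fold higher. Col4a2 stood at 273 and 468, 266 and 436, and 118 and 248 FPKM, which is 1.72-, 1.64- and 2.09-fold higher. The ratio of Col4a1 to Col4a2 stayed between 1.12 and 1.24 over the 6 groups. It was slightly lower in the hypomorph at each age, with 1.14, 1.15 and 1.12 against 1.23, 1.24 and 1.23 in wild type.

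These genes sit head to head, and the sequence between their start sites is shown. The stretch is chr8:11312801-11312830, plus strand, from the RefSeq promoter windows of build GRCm38.p6, and capitals run from the Col4a2 start site to the Col4a1 start site, which is read on the opposite strand.
Col4a2 to Col4a1: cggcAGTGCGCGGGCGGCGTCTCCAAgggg
The start sites are 21 bases apart, and the capitals belong to the first exon of both genes. Col4a5 and Col4a6 also sit head to head, with start sites 1343 bases apart, and their ratio ran from 1.91 to 5.40 over the groups. Col6a1 and Col6a2 lie on the same strand with start sites 102640 bases apart, and their ratio ran from 0.845 to 1.07. The part of this layout in the ratios was not tested. Promoter windows, from 250 bases before to 50 bases after a start, were found for 35 of the 44 members, in 38 windows. The letters GGGCGG, a GC box, on either strand were in 60.5% of the member windows and 35.7% of all 32851 windows, CCAAT in 34.2% and 37.4%, and TATAAA in 13.2% and 13.6%. The 3 motifs were counted separately, and a window may hold several. The Col4a1 window held GGGCGG 1 time and the Col4a2 window 3 times, both held CCAAT 1 time, and neither held TATAAA. In mm9, the build of the expression tables, both genes were listed under a single span that holds 4 genes (chromosome 8, 11187755 to 11449287), so fragments in the overlap could be assigned to either and their values are uncertain to that degree.

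None of the other 4 type IV chains was higher in the hypomorph at all 3 ages. Col4a3 and Col4a4, which join Col4a5 in the type IV collagen best known from kidney and lung, crossed between ages. Col4a3 was at 10.6 FPKM in wild type and 15.3 in the hypomorph at 16 days (1.44-fold higher), 22.3 and 15.1 at 30 days (1.47-fold lower), and 12.9 and 7.24 at 60 days (1.78-fold lower). Col4a4 was 1.44-fold higher at 16 days, 1.23-fold lower at 30 days and 1.61-fold lower at 60 days. Col4a5, whose chain pairs with that of Col4a6 around smooth muscle, was at 310 and 258, 207 and 201, and 62.0 and 67.0 FPKM, so the genotypes were at most 1.20-fold apart. Col4a6 was lower in the hypomorph at each age, 72.1 and 47.8 FPKM at 16 days, 52.8 and 40.2 at 30 days, and 32.4 and 26.0 at 60 days. Its log2 ratio at 16 days in the authors' deposited table was -0.59 with an implied SE of 0.40 and a q-value of 0.927.

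Col18a1 and Col15a1 encode the multiplexins, proteoglycan cores of basement membrane zones whose C-terminal fragments are endostatin and a relative of it. Col18a1 was at 293 FPKM in wild type and 557 in the hypomorph at 16 days, 469 and 718 at 30 days, and 303 and 641 at 60 days. The hypomorph was 1.91-, 1.53- and 2.12-fold higher, and at 30 and 60 days Col18a1 was the highest member in the hypomorph among those with a level at all ages. In the authors' deposited table at 16 days its q-value was 0.468, so the difference did not pass the test where one was made. Col15a1 differed the other way and by less: 688 and 569 FPKM at 16 days, 524 and 459 at 30 days, and 258 and 251 at 60 days. Col18a1 was listed in a span shared with another gene (mm9 chromosome 10, 76494986 to 76629293), as was Col15a1.

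Type VI collagen was lower in the hypomorph in all 4 of its compared chains at each age. The median difference of Col6a1, Col6a2, Col6a3 and Col6a6 was -0.45 at 16 days, -0.70 at 30 days and -0.83 at 60 days. The chains of Col6a1, Col6a2 and Col6a3 form the main heterotrimer. Col6a1 was at 392 FPKM in wild type and 295 in the hypomorph at 16 days, 372 and 249.8 at 30 days, and 229 and 137 at 60 days, which is 1.33-, 1.49- and 1.67-fold lower. Col6a2 was at 389.5 and 276, 413.5 and 234, and 270.5 and 142 FPKM, which is 1.41-, 1.77- and 1.90-fold lower. Col6a3 was only 1.11-, 1.14- and 1.03-fold lower, with 374 and 338 FPKM at 16 days and 186 and 180.3 at 60 days. The ratio of Col6a3 to Col6a1 was accordingly 0.955 in wild type and 1.15 in the hypomorph at 16 days, and 0.815 and 1.31 at 60 days. At 30 and 60 days Col6a1 and Col6a3 were listed with the status FAIL, and Col6a2 and Col6a6 with the status OK.

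Col6a6 had the widest gap of the 4 compared type VI chains. It stood at 19.0 and 5.65 FPKM at 16 days, 10.1 and 2.67 at 30 days, and 6.87 and 1.27 at 60 days, or 3.36-, 3.78- and 5.42-fold lower in the hypomorph. The ratio of Col6a3 to Col6a6 ran from 19.7 in wild type at 16 days to 142 in the hypomorph at 60 days. In mm9, Col6a1 spans chromosome 10, 76171537 to 76188913, Col6a2 spans chromosome 10, 76058507 to 76086375, and Col6a6 spans chromosome 9, 105591747 to 105730415, each listed as the only gene in its span. Beside these values stand the fibroblast markers named by the rule for that list. At 60 days Gsn was at 3738 FPKM in wild type and 873 in the hypomorph, Clec3b at 586 and 163, Pi16 at 929 and 262 and Serpinf1 at 1493 and 477. At 16 days these markers, in the same order, were 1.29-, 1.05-, 1.26- and 1.15-fold lower. Of the list's 8 markers, 6 were at least 1.5-fold lower at 60 days, beside 7.59% of all genes, and 0 at 16 days, beside 5.34%. The part of fibroblasts in the type VI values was not tested.

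The most abundant fibril-forming chains could be read at 60 days only. Col1a1 was at 1829.5 FPKM in wild type and 1347 in the hypomorph (1.36-fold lower), Col1a2 at 1567 and 1234 (1.27-fold lower) and Col3a1 at 1131 and 1205 (1.07-fold higher). Their listings carried the status FAIL. At 30 and 60 days the status belongs to a comparison whose other group is not named, so what failed is not known. FAIL was listed in at least 1 genotype for 19 of the 44 members at 30 days and for 19 at 60 days. Among them were Col11a1 at 30 days, Col8a2 at 60 days, and Col4a3, Col4a4, Col6a1, Col6a3 and Col12a1 at both ages. Col1a1 and Col1a2 encode the chains of type I collagen, and their ratio was 1.17 in wild type and 1.09 in the hypomorph. The ratio of Col1a1 to Col3a1, the chain of type III collagen, was 1.62 in wild type and 1.12 in the hypomorph. Chains of type V collagen, which start fibrils and set their width, were close between the genotypes at 16 and 30 days: Col5a1 was 1.16- and 1.05-fold lower and Col5a2 1.17-fold lower and 1.15-fold higher. At 60 days Col5a2 was at 128 FPKM in wild type and 176 in the hypomorph (1.37-fold higher). Col5a3 stayed between 5.75 and 10.5 FPKM in all groups.

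The fibril-forming chains best known from cartilage were low, and Col2a1 and Col11a1 crossed sides between ages. For Col11a2 at 30 days and Col27a1 at 60 days the side turned after scaling by the median ratio. Col2a1, the chain of type II collagen, was at 2.65 and 1.70 FPKM at 16 days (1.56-fold lower in the hypomorph), 1.71 and 6.63 at 30 days (3.88-fold higher) and 1.49 and 0.996 at 60 days (1.49-fold lower). Col11a1, which encodes a chain of type XI collagen, was at 2.27 and 1.77 FPKM at 16 days, 1.15 and 5.94 at 30 days (5.18-fold higher) and 0.715 and 2.03 at 60 days (2.84-fold higher). Col11a2, encoding its partner, was at 14.1 and 8.33, 5.59 and 5.70, and 9.25 and 2.28 FPKM, which is 4.06-fold lower at 60 days. Col27a1, which fell at 16 days, was at 6.29 and 5.38 FPKM at 30 days and 4.68 and 4.78 at 60 days, so its gap was 1.17-fold lower at 30 days and 1.02-fold higher at 60 days. Cartilage markers moved in both directions: their sums were 45.6 FPKM in wild type and 46.0 in the hypomorph at 16 days, 33.7 and 50.5 at 30 days, and 92.8 and 35.0 at 60 days. Acan, the main proteoglycan of cartilage, was at 8.92 and 30.6 FPKM at 16 days and 4.68 and 23.9 at 60 days, while Chad, a leucine-rich matrix protein, was at 23.0 and 6.95 FPKM and 75.3 and 4.44 FPKM. Of the 8 cartilage markers, Matn1 was listed at 0 in wild type at 16 days. The part of cartilage in these results was not tested.

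Further groups sit beside the main fibrils, and each holds a gene that was close between the genotypes at 16 days and far apart later. Col8a1 and Col8a2 encode the chains of type VIII collagen, a short-chain network of vessel walls. Col8a1 was at 8.68 FPKM in wild type and 10.2 in the hypomorph at 16 days (1.18-fold higher), 8.91 and 39.4 at 30 days (4.42-fold higher) and 11.8 and 34.4 at 60 days (2.92-fold higher). Its log2 ratio at 16 days in the authors' deposited table was 0.24 with an implied SE of 0.36 and a q-value of 1. Col8a2 was at 4.51 and 3.56, 4.24 and 4.22, and 9.34 and 4.39 FPKM, so at 60 days it was 2.13-fold lower while Col8a1 was higher. In mm9 Col8a1 spans chromosome 16, 57624371 to 57754850, alone in its span.

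Among the fibril-associated chains, which sit on the surface of fibrils with interrupted helices, Col12a1 had a like course. It was at 12.5 and 15.1 FPKM at 16 days, 12.4 and 38.1 at 30 days and 17.4 and 32.4 at 60 days, or 1.21-, 3.08- and 1.87-fold higher in the hypomorph. Col16a1 went the opposite way with age: 65.9 and 117 FPKM at 16 days (1.77-fold higher), 85.7 and 112 at 30 days (1.31-fold higher) and 80.1 and 81.3 at 60 days (1.02-fold higher). Col14a1, the most abundant of this class in every group, was at 188.5 and 218 FPKM at 16 days, 233 and 225 at 30 days and 261 and 198 at 60 days. Col9a1 and Col9a3, chains of cartilage type IX collagen, were low, with Col9a1 at 7.17 and 3.82 FPKM at 16 days (1.88-fold lower) and Col9a3 at 3.31 and 2.75, 1.07 and 1.86, and 1.94 and 1.13 FPKM. Col20a1 stayed between 0.843 and 1.56 FPKM. Col22a1, known from tissue junctions, was compared at 16 days only, at 0.869 and 1.86 FPKM (2.14-fold higher).

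The remaining classes gave few values. Col23a1, a transmembrane chain, was at 4.22 and 3.20 FPKM at 16 days, 4.90 and 3.47 at 30 days and 5.85 and 4.04 at 60 days, between 1.32- and 1.45-fold lower in the hypomorph. Col28a1, a chain found around nerves, was at 0.737 and 1.49 FPKM at 30 days (2.03-fold higher) and 0.916 and 2.33 at 60 days (2.55-fold higher). Col19a1, which rose at 16 days, was listed at 0.455 and 1.06 FPKM at 30 days and 0.182 and 1.08 at 60 days. Col10a1, the chain of growth plate type X collagen, was listed at 0.142 and 1.01 FPKM at 30 days. Col19a1 and Col10a1 stayed under the mean of 1 FPKM and were not counted, while Col28a1 was counted at 30 and 60 days.

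**Figure D4:**
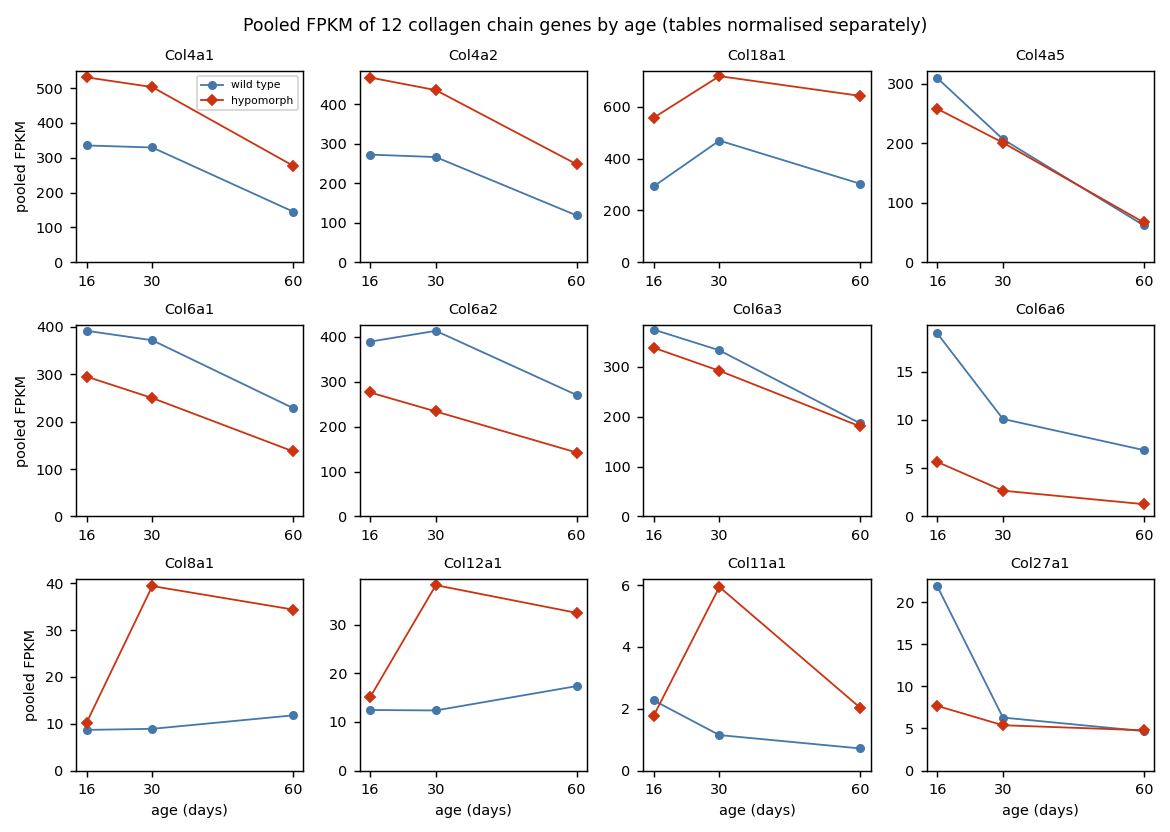
Pooled FPKM of 12 collagen chain genes by age in days for wild type (blue circles) and hypomorph (red diamonds), each panel with its own axis from 0; the 3 ages come from separately normalised tables. Col8a1 reads 10.2, 39.4 and 34.4 FPKM in the hypomorph and 8.68, 8.91 and 11.8 in wild type, and Col6a6 lies lower in the hypomorph at each age.

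Levels also differed between the ages, with the limit that each age has its own table and normalisation. Here a gene entered where the mean of its 16- and 60-day values in 1 genotype was at least 1 FPKM. In wild type, 16 of 28 members were at least 1.5-fold lower at 60 than at 16 days, beside 19.6% of all genes, and 1 was higher, Col8a2, beside 10.3% of all genes. The median ratio of 60 over 16 days was 0.585 for the members and 0.921 for all genes. In the hypomorph, 19 of 31 members were at least 1.5-fold lower, beside 10.5% of all genes, 3 were higher (Col8a1, Col12a1 and Col28a1), beside 13.1%, and the median ratio was 0.539 against 0.988. Some of these members were under 1 FPKM at 1 age and entered through the other. In wild type these were Col9a1 and Col11a1, at 0.890 and 0.715 FPKM at 60 days, both counted as lower. In the hypomorph Col2a1, Col9a1, Col20a1 and Col22a1 were under it at 60 days and counted as lower. Col28a1 was under it at 16 days and counted as higher. Col4a5 was 5.00-fold lower at 60 days in wild type and 3.85-fold lower in the hypomorph, and Col15a1 2.66- and 2.26-fold lower. Col8a1 was 1.36-fold higher in wild type and 3.36-fold higher in the hypomorph, and Col12a1 1.39- and 2.15-fold higher. Col14a1 was 1.38-fold higher in wild type and 1.10-fold lower in the hypomorph.

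The genotype differences of the members at 30 days were nearer to those at 60 days than to those at 16 days. Pearson's r over 28 members was 0.73 (Spearman's rho 0.68) between 30 and 60 days and 0.39 (rho 0.38) between 16 and 30 days, and over 27 members it was 0.56 (rho 0.51) between 16 and 60 days. These correlations are across genes, which share libraries within an age and are not independent replicates.

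The genes that make, process, arrange and remove collagen were described from lists beside the chains. Their counts stand beside the same background: at least 1.5-fold higher and lower were 5.58% and 5.34% of all genes at 16 days, 11.1% and 6.93% at 30 days and 15.6% and 7.59% at 60 days. Of 22 compared genes for chain modification and folding, 3, 2 and 4 were at least 1.5-fold higher in the hypomorph at 16, 30 and 60 days and 0 were lower, with list medians of -0.04, 0.08 and 0.02 beside 0.00, 0.04 and 0.11 over all genes. At 16 days 0 of the 19 tested had a q-value below 0.05 in the authors' deposited table. P4ha3, a prolyl 4-hydroxylase subunit, was at 2.51 FPKM in wild type and 4.12 in the hypomorph at 16 days, 1.76 and 5.38 at 30 days and 1.40 and 3.71 at 60 days. P3h2, a prolyl 3-hydroxylase that acts on type IV collagen, was at 12.7 and 23.6, 14.2 and 25.7, and 13.8 and 24.0 FPKM. Plod2, the lysyl hydroxylase of the telopeptides, was 1.33-fold lower at 16 days, then 1.40- and 1.54-fold higher. Tmem38b, an ion channel of the endoplasmic reticulum, was 1.51-, 1.37- and 2.01-fold higher.

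In the list for processing and cross-linking, 1, 2 and 2 genes were at least 1.5-fold higher and 2, 1 and 3 lower, of 11, 10 and 10 compared. Lox, the enzyme that starts the cross-links of collagen and elastin, was at 368 FPKM in wild type and 233 in the hypomorph at 16 days (1.58-fold lower), 212 and 251 at 30 days and 54.2 and 93.3 at 60 days (1.72-fold higher). Pcolce, which speeds removal of the C-propeptide, was 1.74-fold higher at 16 days and 1.59-fold lower at 60 days, and Pcolce2, its relative, was 1.58-, 2.16- and 2.91-fold lower. Loxl2, a lysyl oxidase that acts on type IV collagen, was 1.63-fold higher at 30 days. Loxl1, chosen after its values were seen, fell at 16 days from 344 to 238 FPKM and was the one of 10 tested genes to pass; its log2 ratio in the authors' deposited table was -0.54, its implied SE 0.16 and its q-value 0.0388.

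Among regulators of the fibril, 0, 3 and 3 genes were at least 1.5-fold higher and 4, 4 and 7 lower, of 14, 13 and 15 compared. Cthrc1, a secreted protein with a short collagen-like repeat, fell at 16 days from 31.6 to 11.4 FPKM, the one of 10 tested genes to pass, and the authors' deposited table gives a q-value of 4.45e-10 and an implied SE of 0.21 for its log2 ratio. At 30 days it stood at 19.4 and 68.7 FPKM and at 60 days at 5.70 and 29.8, higher in the hypomorph. Dcn, the small proteoglycan decorin that coats fibrils, was at 690.4 and 613, 1089 and 743, and 1993 and 777 FPKM. Fn1, fibronectin, on which fibrils assemble, was 1.34-, 2.58- and 3.15-fold higher, and Tnxb, tenascin-X, was 1.33-, 1.52- and 2.20-fold lower. Sparc was listed at 0 in both genotypes at 16 and 30 days, as was Bgn at 30 days.

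In the list for breakdown, 2, 3 and 4 of 12, 12 and 13 compared genes were at least 1.5-fold higher and 2, 1 and 1 lower. Timp1, an inhibitor of metalloproteinases, was at 25.0 and 31.9, 45.4 and 216, and 53.2 and 243 FPKM, the last pair 4.56-fold apart. Mmp13, a collagenase, was at 0.499 FPKM in wild type and 6.53 in the hypomorph at 60 days, and Mmp14, a membrane-bound collagenase, at 31.1 and 72.2. Of 10 compared collagen receptors, 2, 3 and 3 were higher and 0, 0 and 1 lower. Itga1, the integrin alpha chain that binds type IV collagen, was 1.40-, 1.57- and 1.76-fold higher. Lair1, a collagen receptor of immune cells, was at 1.05 and 1.67, 1.31 and 4.75, and 1.10 and 9.65 FPKM, beside the macrophage marker sums given above. Of 11 laminins and other partners in the basement membrane, 0, 1 and 2 were higher and 0, 3 and 3 lower. Agrn, the proteoglycan agrin, chosen after its values were seen, was the one of 8 tested genes to pass at 16 days; it fell from 77.1 to 62.3 FPKM, and its log2 ratio of -0.31 has an implied SE of 0.06 and a q-value of 7.65e-06 by the authors' deposited table. Lama4, a laminin chain of vessels, was at 84.6 and 65.0, 70.1 and 44.5, and 69.6 and 34.0 FPKM, and Lama2, a laminin chain of muscle, was 1.41-, 1.84- and 2.13-fold lower. Other laminin chains, chosen after their values were seen, lay on the other side: Lama5 was at 123 and 178, 97.4 and 116, and 61.6 and 80.0 FPKM, Lamb1 1.29-, 1.11- and 1.08-fold higher and Lamb2 1.24-, 1.14- and 1.02-fold higher. At 60 days the last 2 folds are under the median ratio of all genes, 1.09. Nid2, nidogen-2, which links laminin to type IV collagen, was 1.13-, 1.88- and 1.98-fold higher.

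**Figure D5:**
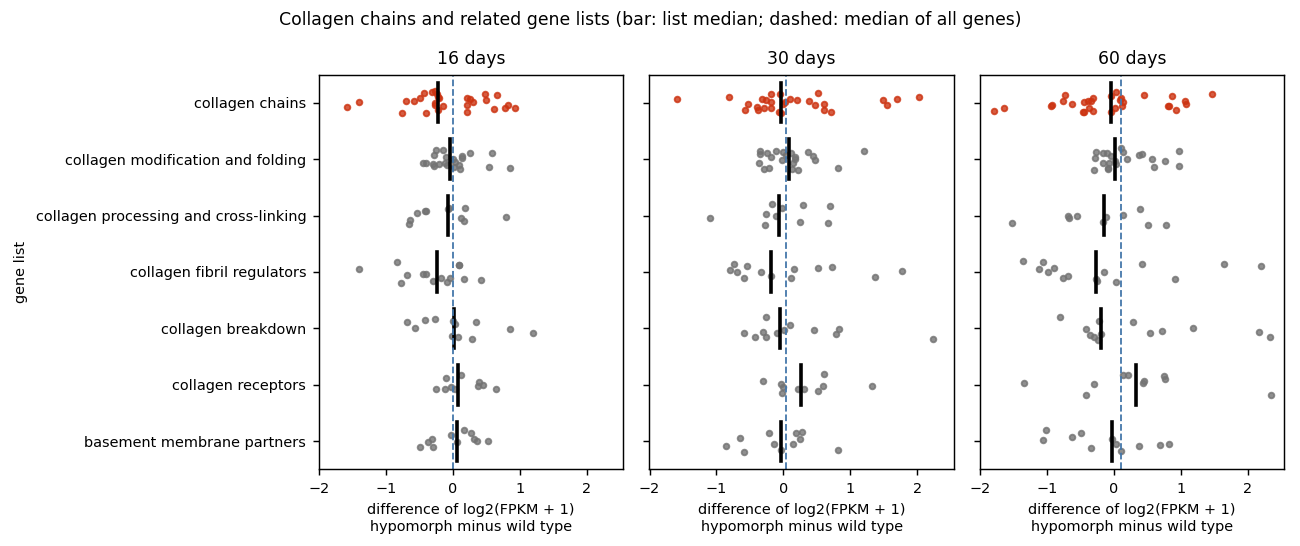
Difference of log2(FPKM + 1), hypomorph minus wild type, for the collagen chains (red) and 6 lists of related genes (grey) at 16, 30 and 60 days; each point is 1 gene, the black bar is the list's median and the dashed line the median of all genes. The collagen chains have medians of -0.22, -0.04 and -0.05 with members on both sides of 0 at every age.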

How the data were processed

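RNA of aorta was sequenced in 19 libraries of 6 groups. The submitters' processing notes name build mm9 and the tools Cufflinks 1.3.0, TopHat2 2.0.8, SAMtools 0.1.7 and Bowtie2 2.1.0; their settings are not given in the sources used here. The authors deposited, per the file headers, 1 pooled FPKM per gene and group, and at 16 days a log2 ratio, statistic, p-value and q-value (adjusted p). Its sign was reversed here, since the deposited ratio has wild type on top. Implied standard errors are that ratio divided by its statistic. Depth is unknown. Wild-type values were listed 3 times at 30 and 60 days, and the largest was kept. Rows of 2 more groups, which no label matches, were left out. Recomputed q-values differed from the deposited ones by at most 4.46e-06.

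Genes listed at 0 or with a mean under 1 FPKM were not compared. The mean was over both genotypes at an age, and between ages over 16 and 60 days in 1 genotype. Differences used a pseudocount of 1. At 16 days a gene was called at a deposited q-value below 0.05; at 30 and 60 days a ratio of at least 1.5 was counted, with no p-value. The p-values at 16 days measure the spread between libraries, which may be technical, as the authors' test estimated it. The collagen members and the lists were chosen with earlier results of these data known, and up to 4 genes per list with the largest differences were named. Scripts ran in Python 3.11.15 with pandas 2.3.3, scipy 1.17.1, numpy 2.4.6 and matplotlib 3.10.9, and were tested on simulated data. Alternatives were other level filters, folds, scaling, pseudocount and listings, leaving out shared spans, and q-values adjusted again. The file loci count from 0, so 1 was added to each start.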

Additional observations from a re-analysis of the deposited data

Results flagged for a closer look

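A collagen chain gene, or a gene of the related lists or marker lists, is given here where the genotypes were at least 1.5-fold apart on opposite sides at different ages. Each difference between ages is untested: it was not tested whether the effects differ, since each group has 1 pooled value. Col2a1 was 1.56-fold lower in the hypomorph at 16 days and 3.88-fold higher at 30 days, and its log2 difference at 30 days less that at 16 days was 1.93. Col9a3 was 1.74-fold higher at 30 days and 1.72-fold lower at 60 days, 0.94 apart on the log2 scale. Cthrc1, at 11.4 FPKM in the hypomorph at 16 days and 29.8 at 60 days against 31.6 and 5.70 in wild type, had the widest gap, 3.60 between 60 and 16 days. Lox was 1.43 higher on this scale at 60 than at 16 days. Pcolce was 1.46 higher at 16 than at 60 days. Mmp9, a gelatinase of the breakdown list, was 1.80-fold lower at 16 days and 2.18-fold higher at 60 days, 1.13 apart. The adipocyte markers Adipoq, Fabp4 and Plin1 were 2.17-, 2.25- and 2.72-fold lower at 30 days and 1.87-, 1.53- and 1.63-fold higher at 60 days, 1.99, 1.78 and 2.04 apart.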

How the results depend on the processing

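The sign of a median turned under 2 settings, at 30 days with no filter on level (0.02) and at 60 days with the status rule named last. Keeping the smallest listing changed no count or median and with a pseudocount of 0.1 the medians were -0.22, -0.04 and -0.05. With no filter on level, 9, 15 and 13 members were at least 1.5-fold higher and 9, 3 and 13 lower at 16, 30 and 60 days, beside 11.7%, 18.4% and 21.7% of all genes higher and 12.9%, 12.3% and 12.8% lower, and the median at 16 days was -0.066. With a mean of at least 5 FPKM, 5 of 21 were higher at 30 days, beside 7.46%. With median-ratio scaling (factors 1.00, 1.03 and 1.09; 0.12 on the log2 scale at 60 days), 4 were lower at 30 days and the median at 60 days was -0.17. With genes in shared spans left out, 1 of 15, 4 of 16 and 3 of 17 were higher (5.87%, 11.8% and 16.5% of all genes). Under this setting 4, 2 and 6 were lower (5.35%, 7.23% and 7.94% of all genes), and the median at 60 days was -0.34. At 2-fold, 1 was higher and 2 lower at 16 days (1.86% and 2.12% of all genes), 5 and 1 at 30 days (5.78% and 2.46%), and 5 and 3 at 60 days (7.68% and 3.31%). With q-values adjusted again over genes of at least 1 or 5 FPKM, 0 were called higher, because Col19a1 lies below both levels. With listings whose status was not OK left out, chosen after seeing the data, 2 of 18 were higher at 16 days (5.98% of all genes). By the same rule 5 of 13 were lower at 60 days (8.54%), and the median at 60 days was 0.12. The status at 30 and 60 days belongs to a comparison whose other group is not named. Where fewer genes enter, fewer can be counted; otherwise the cause was not tested.

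Scaling moved 6 of 89 single values of members across 1.5-fold. No paired analysis was possible because the tables hold 1 pooled value per group, and leaving out a replicate was not run for the same reason.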
